A study of Sus scrofa with 12 samples.

Results

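Messenger RNAs that pig oocytes had largely lost by 22h of in vitro maturation are described here. A transcript counted as lost by 22h when its mean at 0h was at least 10 FPKM (fragments scaled to transcript length and library), its mean at 22h was at most 25% of that, and every 22h library lay below every 0h library. Of the 31908 genes listed, 3191 reached 10 FPKM at 0h, and 154 of these met all conditions, which is 4.83%. The same conditions with 0h and 22h exchanged were met by 8 of 3011 genes, or 0.266%. The members were chosen by their 0h and 22h values, so the differences between 0h and 22h are descriptions with no test.

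The study profiled denuded porcine oocytes at 3 times of in vitro maturation (0h, 22h and 46h), each in 4 libraries. The oocytes came from cumulus-oocyte complexes of prepubertal gilts, and each library was made from 20 pooled oocytes. The labels give no genotype or agent, and the stages differ in the time of maturation. The deposited description calls the middle stage 24h, but the sample labels say 22h, which is used here. Nothing states that replicates came from separate animals or cultures, so p-values measure the spread between these libraries, which may be technical.

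A fully grown oocyte is largely silent in transcription. It lives on messages stored during growth, and from the resumption of meiosis to the egg it translates some of them while shortening the poly(A) tails of others and degrading them. Cytoplasmic polyadenylation elements (CPE) in the 3′ untranslated region, read together with the polyadenylation signal, help to set which messages gain a tail. Messages for ribosomal and mitochondrial proteins are known among those that lose their tails during meiotic maturation. The libraries were made by SMART-Seq2 from an oligo-dT primer, which starts on the poly(A) tail, so that loss of the RNA and shortening of its tail cannot be told apart in these data. In a bulk sample of oocytes, fewer cells holding a message and less of it per cell cannot be told apart either.

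Of 26 matched oocyte markers 18 reached 10 FPKM at 0h, and the summed level of the 26 was between 39421 and 69066 FPKM in every library. Of the 24 that were tested, 15 fell from 22h to 46h and 1 rose (limma), beside 32.6% and 9.87% of all genes tested. BTG4 made up much of the sum, with 13936 to 17621 FPKM in the 0h libraries and 26454 to 30934 in the 46h libraries. GDF9 had 287 to 1451 FPKM in the 0h libraries and 33.3 to 41.0 in the 46h libraries, whereas TCL1A was at 0 throughout. Of 27 matched cumulus and granulosa cell markers, 23 stayed below 1 FPKM in all 12 libraries, and INHA, LHCGR, AMHR2 and NR5A1 were at 0 throughout. Besides VCAN, STAR had 2.06 to 7.58 FPKM, FST 2.51 to 9.58 and SERPINE2 0.21 to 2.67 over the 12 libraries. The summed level of these 27 lay between 48.2 and 89.9 FPKM in the 0h libraries, between 58.0 and 88.9 in the 22h libraries and between 118 and 144 in the 46h libraries, most of it VCAN, and none of the 27 is a member. Of 18 matched markers of theca, blood, immune and vessel cells, 14 stayed below 1 FPKM in all libraries, and none is a member. PECAM1 was the highest of these, with 7.71 to 10.86 FPKM at 0h and 20.97 to 23.61 at 46h. The share of the protein-coding genes of the mitochondrial genome in total FPKM differed by stage, between 1.79% and 3.76% in the 0h libraries, between 8.06% and 12.02% in the 22h libraries and between 12.8% and 16.7% in the 46h libraries, and its part in the results was not tested. With these genes left out and totals equalised, 130 genes met the rule, 125 of them members. With totals equalised alone (TPM), 156 genes met it, 153 of them members. The 0h replicate 4 stood apart from the other 0h libraries. It held the highest value of its stage for 43.0% of the genes at 10 FPKM or more at 0h and the lowest for 39.3%. Among the members it was highest for 96 (62.3%) and lowest for 39 (25.3%), with a median of 122% of the 0h mean against 86.2% to 100.4% in the other 0h libraries. The read depth is unknown because FPKM carries no counts.

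The 154 members spanned a wide range at 0h, with a lowest mean of 10.2 FPKM, a median of 53.4 and a highest of 22126. Above 100 FPKM there were 55, above 500 there were 20, and above 1000 there were 6. A gene symbol was at hand for 128, and 26 are known here only by their Ensembl identifier. At 22h the members kept between 3.10% and the limit of 25% of their 0h mean, with a median of 18.4% and quartiles of 14.6% and 22.3%. Over all 3191 genes at 10 FPKM or more the median was 98.4%. Only MT3 and TSACC were at or below 5% at 22h, and 8 members were at or below 10%, so that most members were reduced at 22h and still measurable.

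At 46h the members kept a median of 2.41% of the 0h mean, with quartiles of 1.07% and 5.90%, beside 77.5% over all genes at 10 FPKM or more. The members' median was 3.25% under median-of-ratios scaling and 4.14% under quantile normalization. At or below 5% were 108 members, and at or below 1% were 37. The mean was under 1 FPKM at 46h for 57 members, and 5 were listed at 0 in every 46h library. These 5 are MT3, TSACC, RPL29, ENSSSCG00000009146 and ENSSSCG00000003261. The 4 members above 25% at 46h were PRDX2 with 40.9%, RNF181 with 36.0%, ENSSSCG00000042671 with 32% and AGR2 with 27.2%. The members singled out in these counts were chosen after their values were seen.

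The members together held 5.76% to 7.83% of total FPKM in the 0h libraries, 1.01% to 1.66% in the 22h libraries and 0.220% to 0.288% in the 46h libraries. C6orf52 alone made up a large part of this. Without it the shares were 3.68% to 4.17%, 0.380% to 0.865% and 0.192% to 0.218% in the same order. The 46h range lies below the 22h range on either count, while the gap between 0h and 22h follows from the rule.

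The 22h libraries differed among themselves in how much of the members they held. The median share of the 0h mean was 24.1% in 22h replicate 1, 9.94% in replicate 2, 20.2% in replicate 3 and 16.3% in replicate 4. Replicate 2 had the lowest value of the stage for 120 members (77.9%), whereas it was lowest for 25.4% of all genes at 10 FPKM or more at 0h. Replicate 1 was highest for 97 members (63.0%) and for 34.7% of all those genes. At 46h the 4 libraries lay close together, with medians of 2.01% to 2.48%. The median coefficient of variation over the members was 28.1% at 0h, 42.9% at 22h and 30.8% at 46h, beside 21.8%, 19.7% and 17.5% over the other genes at 10 FPKM or more. Without 22h replicate 2 the rule found 116 genes, 114 of them members, and without 22h replicate 1 it found 194, of which 152 are members. Without 0h replicate 4 it found 136, with 123 members among them.

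**Figure D1:**
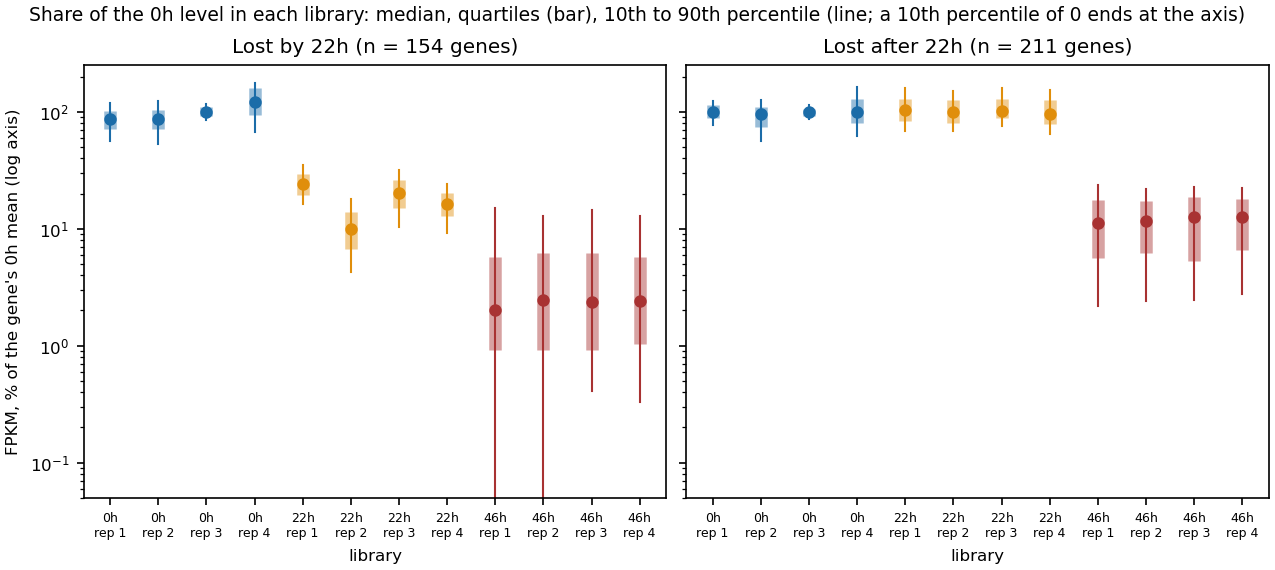
FPKM in each of the 12 libraries as a percentage of the gene's 0h mean, on a log axis, for the 154 genes lost by 22h (left) and the 211 lost after 22h (right). Dots are medians, bars quartiles and lines the 10th to 90th percentile. On the left the 22h medians lie between 9.94% and 24.1% and replicate 2 is lowest, whereas on the right all 22h medians are near 100%.

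The 10 named members with the highest level at 0h start with C6orf52, an open reading frame of little-known function. C6orf52 had 16262, 15010.5, 28627 and 28605 FPKM in 0h replicates 1 to 4, then 6146, 4911, 3347 and 4206 at 22h and 239.6, 200.4, 51.5 and 557 at 46h. Each stage lay wholly below the one before, and 46h replicate 3 was the lowest of its stage by a wide margin. DPPA5, an RNA-binding protein known from pluripotent cells, had 1223, 1320.5, 2486 and 5525 FPKM at 0h, 610.4, 507.8, 378.2 and 380.9 at 22h and 186, 154.4, 171.6 and 215.9 at 46h. The spread of DPPA5 at 0h came mainly from replicate 4, and the later stages were tight. Without that library the 22h share of DPPA5 would pass the limit of 25%, and it would not be a member. C8orf76 averaged 2007 ± 543 FPKM (SD, n = 4) at 0h, 278 ± 121 at 22h and 34.0 ± 11.01 at 46h. HAUS1, a subunit of the augmin complex that branches spindle microtubules, averaged 1019 ± 97.5, 229.6 ± 80.4 and 16.65 ± 4.12 FPKM at the 3 stages.

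OTX2, a homeodomain transcription factor, behaved differently after 22h. Its values were 968, 1011, 559.6 and 236 FPKM at 0h, 143, 121, 193 and 165 at 22h and 127, 184, 133 and 177 at 46h. The 22h and 46h libraries overlapped fully, and the lowest 0h value, in replicate 4, was close to the highest of 22h. OTUB1, an enzyme that removes ubiquitin, had a mean of 661 ± 187 FPKM at 0h, 133 ± 56.2 at 22h and 7.15 ± 1.90 at 46h. It kept 20.1% at 22h and 1.08% at 46h.

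The 10 named members with the lowest share left at 22h were MT3, TSACC, C1orf105, RPL36AL, SLC47A1, TAX1BP3, FAM32A, ATP5MC1, NDUFB7 and ZMAT2. Most of these were of low or middling level at 0h. MT3, a metallothionein, had 6.93, 10.1, 18.3 and 25.01 FPKM at 0h, 1.87 in 22h replicate 1 and 0 in the other 7 libraries. TSACC, a cochaperone of a testis kinase, had 12.6, 6.91, 11.2 and 23.6 FPKM at 0h, 2.62 in 22h replicate 1 and 0 in the other 7. SLC47A1, an exporter of organic cations, averaged 12.3 ± 5.77 FPKM at 0h, 1.04 ± 0.383 at 22h and 0.025 ± 0.05 at 46h. For MT3 and TSACC the value at 22h rests on 1 library.

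**Figure D2:**
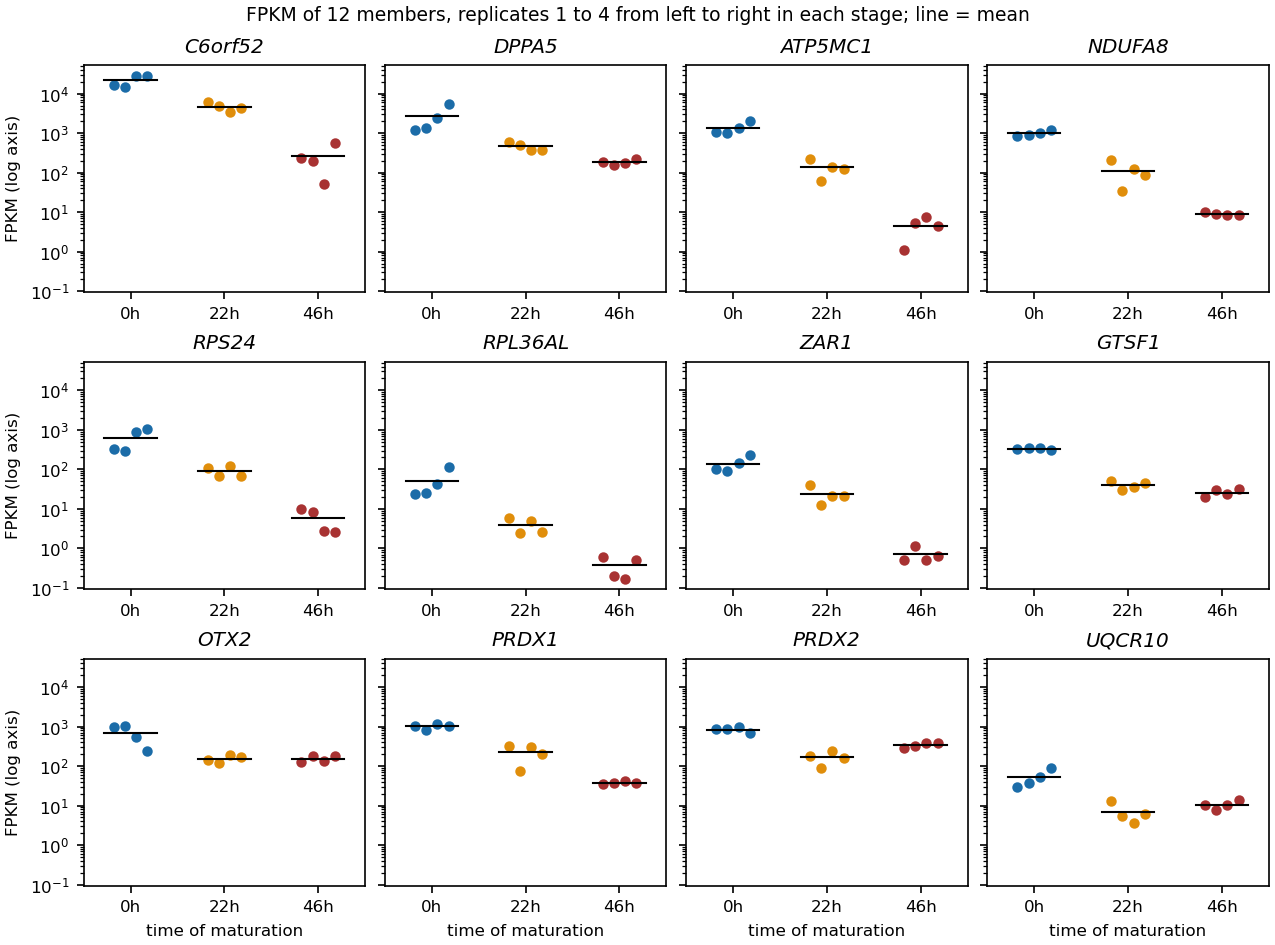
FPKM of 12 members in the 4 libraries of each stage on a shared log axis, with the mean as a line. Most step down at both times, as ATP5MC1 does from 1367 to 138 and 4.585, whereas OTX2 is level between 22h and 46h and PRDX2 is higher at 46h than at 22h.

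The ends of some of these messages are shown because the tail they carry is what the primer read. Each line gives 30 bases of the RefSeq transcript (Sscrofa11.1, read on the transcript strand, 5′ to 3′) that finish with the polyadenylation signal nearest its 3′ end. The capitals mark that signal, AATAAA or ATTAAA, and any CPE, TTTTAT or TTTTAAT, in the window. PRDX1 lies at chr6:165859877-165859906 (+), PRDX2 at chr2:66211426-66211455 (+), DPPA5 at chr1:52986474-52986503 (-), NDUFA8 at chr1:262243233-262243262 (-), RPS24 at chr14:80480770-80480799 (+), RPL36AL at chr1:179476652-179476681 (-), UQCR10 at chr14:46786098-46786127 (+), ZAR1 at chr8:38391565-38391594 (+), GTSF1 at chr5:19639344-19639373 (-), OTX2 at chr1:186028590-186028619 (-), OTUB1 at chr2:8088542-8088571 (-), CDK7 at chr16:47435555-47435584 (+) and CALML4 at chr1:166089600-166089629 (-), all in the 3′ untranslated region of the last exon.
PRDX1: cacttttgaccttttgtagttcctATTAAA
PRDX2: ctgggtacaggccttttggtgaccAATAAA
DPPA5: cccacccaaggttgctaattaaagAATAAA
NDUFA8: gttattctataccatttcctgcccATTAAA
RPS24: gtgcaaaattttcatgaggggcccAATAAA
RPL36AL: ggggaaaaaaaatgcctgtatgagAATAAA
UQCR10: tgaagtttgattagaatcatcacaAATAAA
ZAR1: aggctgtatttgacaaagctgtcaAATAAA
GTSF1: ttttgttaaaatacttgtcactaaAATAAA
OTX2: gatttggcagatatgtataattatATTAAA
OTUB1: ctgtcacacgaccttccatgTTTTATTAAA
CDK7: aatatgtaaaattgggttgtTTTTATTAAA
CALML4: attagctaaaacagcatgtaTTTTAATAAA

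OTUB1, CDK7 and CALML4 are the only members whose window held a CPE, and in all 3 its letters run into the signal. CDK7, the kinase of transcription factor TFIIH, averaged 189 FPKM at 0h and kept 18.4% at 22h and 4.16% at 46h. Such a window could be read for 64 members, so 3 of 64 (4.69%) held the letters, beside 198 of 2006 windows (9.87%) of all genes at 10 FPKM or more at 0h. Since 64 of 154 members is too few for a comparison, none is made. A match or its absence in 30 bases is a description only, as a CPE farther from the signal is not seen there. Anywhere in the 3′ untranslated region the letters stood in 42 of the 110 members with a RefSeq transcript (38.2%). For all genes at 10 FPKM or more at 0h this was so in 1709 of 2551 (67.0%). These shares are not compared either.

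Transcript properties were likewise at hand for part of the members. A RefSeq transcript was matched by symbol to 110 of the 154 members (71.4%), which is under 80%, so that a comparison of lengths or GC content over all members is void. The unmatched are the 26 without a symbol and those whose symbol gave no complete transcript. What follows describes the named members only, of which 85.9% had a transcript, beside 91.1% of the other named genes at 10 FPKM or more at 0h. The median coding length was 752 bases in the named members (quartiles 508 and 1076) and 1188 in the others (753 and 1920). The median GC content of the transcript was 52.3% (45.4% and 57.0%) against 45.3% (41.1% and 51.1%). The genes lost after 22h lay between, at 987 bases and 47.3%. No test was made. A 3′ untranslated region that ends near a signal was found for only 70 members, so its length is not compared.

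**Figure D3:**
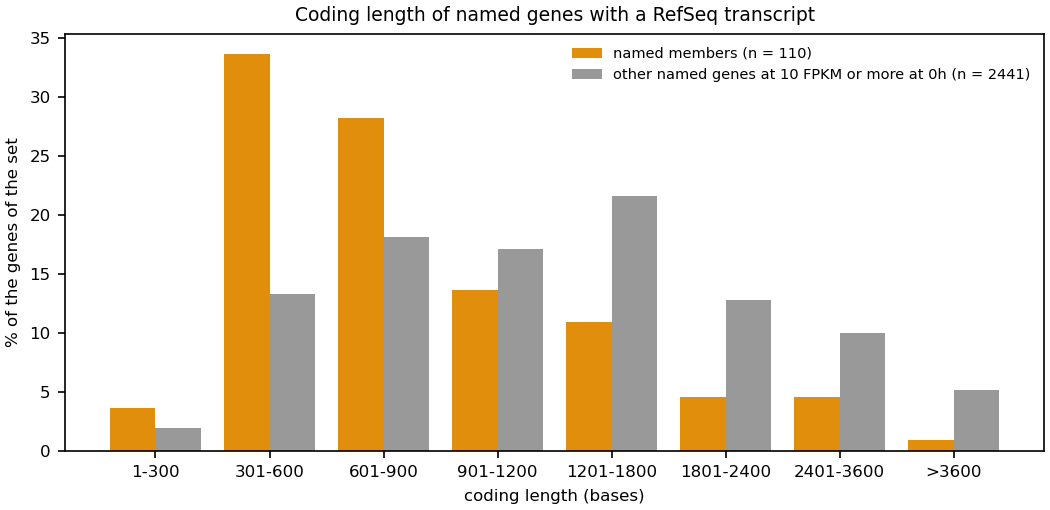
Share of genes by class of coding length, for 110 named members and 2441 other named genes at 10 FPKM or more at 0h that have a RefSeq transcript. Of the members 33.6% have 301 to 600 coding bases, beside 13.3% of the others.

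The comparison of 46h with 22h uses libraries that the rule did not (46h) beside some that it did (22h). The 0h libraries, which the rule also used, enter the fit through its estimate of the spread. The rule favours low 22h values and so works against calls of a further decrease and towards calls of an increase. In limma, fitted on log2(FPKM + 1) over 7013 genes with Benjamini-Hochberg adjustment, a gene was called at an adjusted p under 0.05 and a fold change over 1.5. Of the 154 members 129 (83.8%) fell from 22h to 46h, beside 32.6% of all genes tested and 37% of the other genes at 10 FPKM or more at 0h. A rise was called for 3 members (1.95%), beside 9.87% of all genes tested and 14.5% of those others. The other 22 (14.3%) were not called, beside 57.6% and 48.5%. Some members passed the filter, a mean of 1 FPKM over all 12 libraries, only through their 0h values. Of these, C1orf105, FCF1, RPL29, SLC47A1, YIF1A, ENSSSCG00000003261, ENSSSCG00000035578 and ENSSSCG00000042437 were called lower and are part of the 129. MT3, TIMD4 and TSACC were not called. The share of falls without these members was not taken. Among the 97 members with a 22h mean of at least 5 FPKM, 85 fell and 2 rose. No share over other genes was taken at that level, and shares at 20 FPKM or more are given below. Every 46h library lay below every 22h library for 122 members (79.2%), beside 35.4% of all genes tested. The median change was -1.69 on the log2(FPKM + 1) scale for the members and -0.26 for all genes tested, a scale that understates the change of low genes. Under median-of-ratios scaling 121 members fell and 5 rose, beside 25.7% and 20.2% of all genes tested. Under quantile normalization 106 fell and 8 rose, beside 19.1% and 28.1%. The median change was then -1.50 and -1.15 for the members, and 0.02 and 0.21 for all genes tested.

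The 5 largest falls among named members were those of ATP5MC1, C6orf52, EIF6, RFC3 and TMEM120A. ATP5MC1, which encodes the c subunit of the ATP synthase ring, had 225, 60.1, 139 and 125 FPKM at 22h and 1.11, 5.31, 7.39 and 4.53 at 46h. All 46h values lay far below the 22h values, and ATP5MC1 fell by 4.65 on the log2 scale (SE 0.43, limma, adjusted p = 6.82e-07). EIF6, which keeps the large ribosomal subunit from joining the small one, had 131, 40.9, 156 and 114 FPKM at 22h and 3.52, 4.62, 4.54 and 2.78 at 46h, and fell by 4.38 (SE 0.32, limma, adjusted p = 6.43e-08). RFC3, a subunit of the clamp loader of DNA replication, went from 110.5 ± 32.7 to 4.79 ± 1.37 FPKM (SD, n = 4). TMEM120A, a membrane protein, went from 78.3 ± 28.3 to 3.60 ± 0.76.

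Of the 22 members that were not called, 16 had a negative and 6 a positive change, and 4 had an unadjusted p under 0.05. The 22h mean was under 5 FPKM for 12 of them. Among the 51 members with a 22h mean of at least 20 FPKM, 46 fell (90.2%) and 2 rose (3.92%), beside 33.6% and 16.3% of the other 2057 genes at that level. OTX2 changed by 0.00 (SE 0.37, limma, adjusted p = 0.997), and IL6ST by 0.11 (SE 0.16, adjusted p = 0.59).

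PRDX2, AGR2 and ENSSSCG00000042671 rose. PRDX2, a cytosolic peroxiredoxin that removes hydrogen peroxide, had 869, 872, 955 and 673 FPKM at 0h, 178, 88.9, 247 and 160 at 22h and 292, 325, 387 and 373 at 46h. All 46h libraries lay above all 22h libraries and below all 0h libraries, and PRDX2 rose by 1.11 (SE 0.25, limma, adjusted p = 0.00237). ENSSSCG00000042671 had 182, 87.3, 169 and 129 FPKM at 22h and 193, 206, 312 and 194 at 46h, with no overlap (0.69, limma, adjusted p = 0.0243). Its rise was no longer called without 22h replicate 2 (adjusted p = 0.0784) or 4 (0.0546), without 46h replicate 3 (0.0809) or with no filter on low values (0.0632). AGR2, a disulfide isomerase relative of the endoplasmic reticulum, had 4.13, 2.18, 0.77 and 0.37 FPKM at 22h and 5.09, 2.12, 4.34 and 3.77 at 46h. Its stages overlapped, and its rise of 0.90 (SE 0.34, limma, adjusted p = 0.0411) was no longer called without 22h replicate 3 or 4, or without 46h replicate 1, 3 or 4. The adjusted p of AGR2 was then 0.0788 to 0.139, and it was also lost without 0h replicate 1 (0.0502) or 3 (0.0511), with no filter on low values (0.118) and with only 22h and 46h in the fit (0.0596).

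PRDX1, the closest relative of PRDX2, took the other course. It had 1018, 837, 1137 and 1047 FPKM at 0h, 326, 75.3, 306 and 202 at 22h and 35.2, 37.2, 41.3 and 37.2 at 46h. PRDX1 fell by 2.36 from 22h to 46h (SE 0.35, limma, adjusted p = 6.75e-05). At 22h, where the rule admits at most 25%, PRDX1 had 22.5% and PRDX2 20.002% of the 0h mean, and at 46h they had 3.73% and 40.9%. Without 22h replicate 2 the 22h share of PRDX1 would pass the limit of 25%, and it would not be a member, whereas PRDX2 would stay a member. The difference between the 2 genes was not tested. Of 14 genes of the antioxidant and thiol list at 10 FPKM or more at 0h, 3 are members (MT3, PRDX1 and PRDX2).

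**Figure D4:**
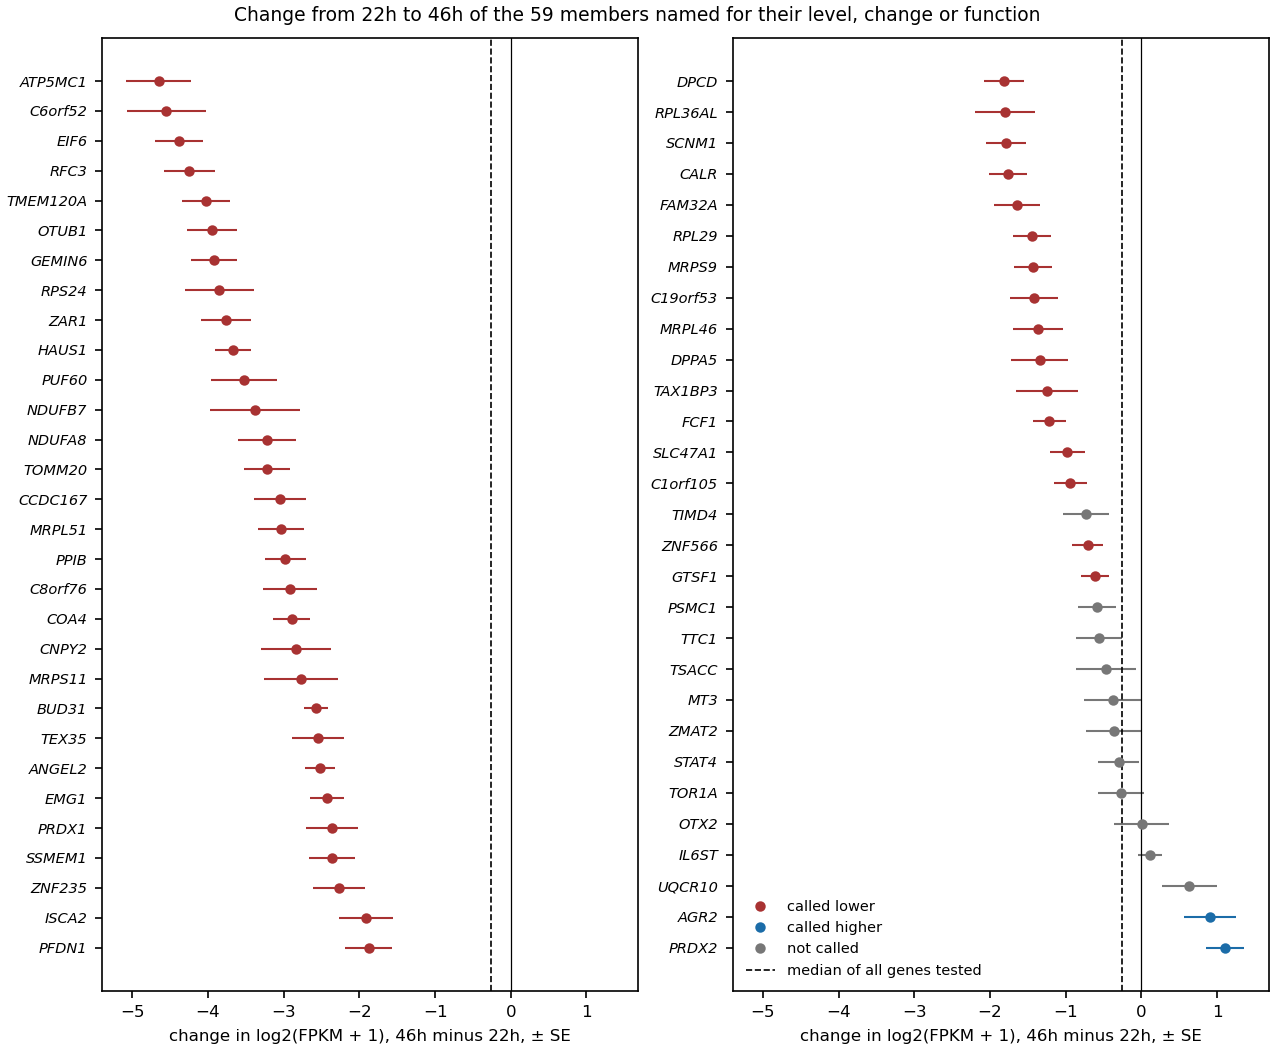
Change from 22h to 46h of the 59 members named for their level, change or function, as the difference in log2(FPKM + 1) with its SE from limma, coloured by call. The dashed line is the median of all genes tested (-0.26), and only PRDX2 and AGR2 are called higher.

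The named members were sorted into 14 lists by function. The lists were written with the members' names known, so their shares of members are not a test of a theme and read high beside the background of 4.83%. Since 83.8% of all members fell from 22h to 46h, falls among a list's members are not a result about that list. In all, 61 members stand in at least 1 list and 67 named members in none. The shares of members also lean on 22h replicate 2, the lowest 22h library for most members. Without it the 22h shares of NDUFA7, TOMM20, PPIB, ANGEL2, ROPN1L, SPATA24, ZNF235 and ZNF566 would pass the limit of 25%. The same holds for PRDX1 and for members named in this respect below.

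Of the nuclear-encoded subunits of the respiratory chain at 10 FPKM or more at 0h, 6 of 44 (13.6%) are members, namely ATP5MC1, NDUFA7, NDUFA8, NDUFB7, NDUFS3 and UQCR10. NDUFA8, of complex I, had 847, 912, 1013 and 1210 FPKM at 0h, 204, 33.5, 124 and 84.9 at 22h and 9.91, 9.03, 8.59 and 8.70 at 46h. The 22h libraries of NDUFA8 spread widely, with replicate 2 lowest, whereas its 46h libraries nearly coincided. UQCR10, of complex III, had 12.9, 5.30, 3.66 and 6.01 FPKM at 22h and 10.5, 7.60, 10.2 and 13.9 at 46h, which overlap (0.63, SE 0.36, limma, adjusted p = 0.16). A rise of UQCR10 was called without 22h replicate 1 (0.94, limma, adjusted p = 0.0327), under median-of-ratios scaling (0.95, 0.0199) and under quantile normalization (1.11, 0.0181). Of the 6, 4 fell from 22h to 46h, and NDUFS3 and UQCR10 were not called. Over all 44 genes the median left was 45.2% at 22h and 15.6% at 46h. Of the 54 genes of the list that were tested, 33 fell and 3 rose.

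Of the mitochondrial ribosomal proteins 6 of 38 (15.8%) are members, and all 6 fell from 22h to 46h. Without 22h replicate 2 the 22h shares of MRPS11, MRPS9 and MRPL24 would pass the limit of 25%, and these genes would not be members. Over the whole list 39 of 59 tested genes fell and 3 rose. MRPL46 averaged 456 ± 77.3 FPKM at 0h, 81.4 ± 46.3 at 22h and 27.0 ± 2.33 at 46h (SD, n = 4). MRPS11 was far lower, with 52.9 ± 15.4, 10.4 ± 7.11 and 0.3675 ± 0.456 FPKM. MRPL51, MRPL24, MRPS9 and GADD45GIP1 complete the group. The median over the 38 genes was 48.8% at 22h and 11.01% at 46h. Of factors for import, assembly and iron-sulfur clusters 3 of 25 (12%) are members, and all 3 fell. In that list 26 of 41 tested genes fell and 2 rose. TOMM20, a receptor for protein import, ranged over 100.3 to 159 FPKM at the start, 15.05 to 38.95 by 22h and 1.43 to 4.15 by 46h. COA4, an assembly factor of cytochrome c oxidase, kept 21.5% and 2.54% at the later stages, and ISCA2, of iron-sulfur cluster assembly, 14.3% and 3.09%.

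Cytosolic ribosomal proteins gave 3 of 36 members (8.33%), RPS24, RPL36AL and RPL29, and all 3 fell further. Over the whole list 33 of 42 tested genes fell and 2 rose. The median left over the 36 genes was 61.8% at 22h and 13.2% at 46h. RPS24 had 331, 297, 875 and 1052 FPKM at 0h, 106, 66.8, 120 and 67.8 at 22h and 9.83, 8.48, 2.81 and 2.57 at 46h. The 0h replicates of RPS24 fell into a lower and a higher pair, and all stages were apart. RPL36AL kept 7.77% at 22h and 0.726% at 46h. Its 0h libraries had 23.7, 24.9, 42.7 and 112.6 FPKM, so both shares would be clearly higher without 0h replicate 4. Copies of ribosomal protein genes resemble each other, and how shared reads were divided by RSEM can move these values. Ribosome biogenesis factors gave 4 of 31 (12.9%), EIF6, EMG1, C19orf53 and FCF1, and all 4 fell. Without 22h replicate 2 the 22h shares of EIF6, EMG1 and C19orf53 would pass the limit of 25%. Of the 4 only FCF1 would then stay a member, and FCF1 passed the filter of the fit only through its 0h values. In that list 22 of 56 tested genes fell and 2 rose. EMG1, a methyltransferase of ribosomal RNA, averaged 24.8 ± 3.57, 5.70 ± 2.14 and 0.1925 ± 0.0967 FPKM at the 3 stages.

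Splicing proteins gave 4 of 36 members, GEMIN6, SCNM1, BUD31 and PUF60, and all 4 fell from 22h to 46h. GEMIN6, of the complex that loads small nuclear RNPs, ranged from 318 to 509 FPKM before culture, from 29.9 to 110 by 22h and from 2.30 to 3.58 by 46h. BUD31 had one of the tightest courses, with 292 ± 22.4, 62.7 ± 9.36 and 9.73 ± 1.51 FPKM (SD, n = 4). PUF60 kept 17.6% at 22h and 0.412% at 46h. Over the 36 genes the median left was 87.4% at 22h and 64.8% at 46h. Of the 52 genes of the list that were tested, 24 fell and 5 rose.

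Secretory pathway proteins gave 9 of 58 members (15.5%), of which 7 fell, AGR2 rose and TOR1A was not called (limma, adjusted p = 0.497, and 0.0367 with a fall when 22h replicate 2 was left out). DAD1 was not called lower under median-of-ratios scaling or quantile normalization, which left 6. Over the whole list 35 of 76 tested genes fell and 5 rose. CNPY2, a protein of the endoplasmic reticulum, had 526, 476, 504 and 836 FPKM at 0h, 144, 21.2, 123 and 85.7 at 22h and 7.38, 7.46, 15.3 and 10.4 at 46h. CALR, the calcium-binding chaperone calreticulin, averaged 124 ± 31.8, 19.98 ± 7.15 and 4.90 ± 0.523 FPKM. PPIB, a cyclophilin of the same compartment, ended at 0.6675 ± 0.0634 FPKM from 60.7 ± 6.52 at 0h. Of cytosolic folding chaperones 3 of 33 (9.09%) are members, PFDN1, TSACC and TTC1. PFDN1, of the prefoldin complex, fell, and TTC1 had 67.3 to 94.5 FPKM at 22h and 32.03 to 70.1 at 46h without a call (-0.56, SE 0.30, limma, adjusted p = 0.14). Of 27 proteasome genes only PSMC1 is a member (3.70%), and it was not called between 22h and 46h (limma, adjusted p = 0.0668). A fall of PSMC1 was called without 0h replicate 4 (0.013), without 22h replicate 2 (0.0385) and with only 22h and 46h in the fit (0.0167).

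Among regulators of maternal messages and small RNAs 6 of 33 (18.2%) are members, while the median over the 33 was 95.2% at 22h and 82.6% at 46h. ZAR1, which binds and stores maternal mRNAs, had 101, 91.5, 144 and 224 FPKM at 0h, 41.3, 12.4, 20.9 and 20.8 at 22h and 0.50, 1.16, 0.51 and 0.64 at 46h. The stages of ZAR1 did not overlap, and ZAR1 fell by 3.76 from 22h to 46h (SE 0.33, limma, adjusted p = 3.71e-07). It is the only member among 18 oocyte markers at 10 FPKM or more at 0h. GTSF1, which acts with piRNAs in transposon silencing, had 333, 347, 338 and 312 FPKM at 0h, 49.6, 29.9, 36.4 and 45.4 at 22h and 19.5, 29.5, 23.7 and 30.9 at 46h. Most of the decline of GTSF1 was reached at 22h, where it kept 12.1%, and 7.79% was left at 46h. Its fall from 22h to 46h was small (0.62, SE 0.19, limma, adjusted p = 0.0148), and the stages overlapped. The fall of GTSF1 was no longer called without 22h replicate 1 or 4, or 46h replicate 1 or 3. Under median-of-ratios scaling and quantile normalization its change was -0.27 and -0.18 (limma, adjusted p = 0.31 and 0.44). YBX2, the germ cell Y-box protein, kept 15.6% and 1.06% at the later stages. Its 46h libraries were near 0, with 0, 0.13, 0.45 and 0.24 FPKM, and the 46h share would be lower without replicate 3. PAPOLG, a poly(A) polymerase of the nucleus, kept 15.5% and 7.60% without a call, and DPPA5 and ANGEL2 fell.

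Genes known from cilia, flagella or sperm gave 9 of 36 members (25%), and 8 of the 9 fell (6 under quantile normalization, where CFAP58 and SPATA24 were not called). Of all members 83.8% fell. Over the whole list 25 of 66 tested genes fell and 7 rose. The median left over the 36 genes was 83.3% at 22h and 26.5% at 46h. SSMEM1, known from sperm, averaged 467 ± 59.3 FPKM at 0h, 85.6 ± 30.03 at 22h and 16.0 ± 5.84 at 46h (SD, n = 4). TEX35 and DPCD had 1.55% and 1.76% left at 46h. The list of cytokine receptor, adhesion and surface genes, which also holds the transcription factor STAT4, gave 3 of 15 members (20%). These are STAT4, IL6ST and TIMD4, and none was called between 22h and 46h in limma. Over the whole list 14 of 44 tested genes fell and 3 rose. IL6ST, the shared receptor subunit gp130, had 10.9, 12.2, 15.4 and 15.6 FPKM at 0h, 3, 2.04, 2.89 and 2.31 at 22h and 3.19, 2.60, 2.62 and 2.91 at 46h. Its 22h and 46h values overlapped, and a rise was called under quantile normalization alone (0.62, limma, adjusted p = 0.00206). A fall of TIMD4 was called with the replicate number as a block (limma, adjusted p = 0.0311), with TPM (0.0465), with a pseudocount of 0.1 (0.0414), and without 22h replicate 2 (0.00685) or 46h replicate 1 (0.0116). STAT4, a transcription factor of cytokine signalling, kept 19.5% and 15.4%. The zinc finger genes ZNF235 and ZNF566 are 2 of 24 (8.33%), and both fell, but ZNF566 was not called under median-of-ratios scaling (-0.48, limma, adjusted p = 0.11) or quantile normalization (-0.21, 0.493). Of 94 zinc finger genes tested, 18 fell and 9 rose.

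**Figure D5:**
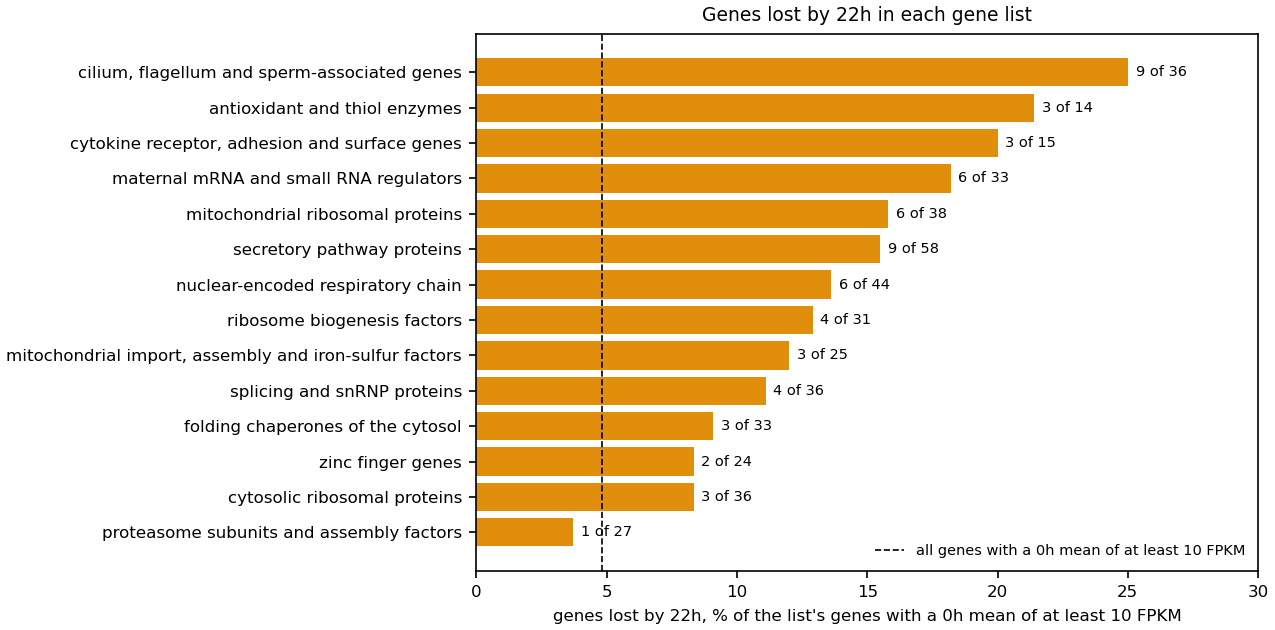
Genes lost by 22h as a percentage of each list's genes with a 0h mean of at least 10 FPKM, with the counts beside the bars. The dashed line is the share over all such genes (4.83%), and the lists were written with the members' names known.

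Genes on either side of the rule's limits had nearly the same values. Just inside the ratio were FDPS, of isoprenoid synthesis, with 24.8% left at 22h and ZNF566 with 24.8%. Just outside were DDX28 with 25.1%, SNX22 with 25.1% and CHEK2 with 25.2%. Just above the level were NUBP2 with 10.2 FPKM at 0h, SPATA24 with 10.4 and YIF1A with 11.06, and just below it were CD2 with 9.88, FKBP2 with 9.74 and KLF1 with 9.72.

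Genes lost only after 22h are given for comparison. These 211 genes had a 0h mean of at least 10 FPKM, at least 75% of it at 22h and at most 25% at 46h. Their median at 0h was 48.8 FPKM, close to the 53.4 of the members, with 100.2% left at 22h and 12.7% at 46h. These shares follow from how the 211 were chosen. In all, 857 genes at 10 FPKM or more at 0h had at most 25% left at 46h, and 150 of them are members. As both sets were cut from the same libraries, no test of the difference is given.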

How the data were processed

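Expression was measured by SMART-Seq2 RNA-seq in 12 libraries of pig oocytes, grouped by the label on maturation time (0h, 22h and 46h, 4 each). The authors trimmed reads with Trim Galore, aligned them with STAR to the swine genome Sscrofa11 and took FPKM from RSEM, and they deposited 1 FPKM value per Ensembl gene and library. Counts that the authors made with HTSeq were not used here. FPKM is relative to library and transcript length, so a few abundant genes can move all others.

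The membership rule was applied to the values as deposited. The 46h against 22h comparison used limma 3.58.1 in R 4.3.3 (lmFit, eBayes with trend) on log2(FPKM + 1) of the 7013 genes that averaged 1 FPKM or more, with stage as the factor over all 12 libraries, two-sided and with Benjamini-Hochberg adjustment. The fit was tested on simulated data, with no result of that test given here. Symbols were matched by identifier (15029 of 31908). Transcripts, coordinates and sequences are from RefSeq on Sscrofa11.1, matched by symbol and read with samtools 1.23.1, preferring transcripts that end within 40 bases of a polyadenylation signal. The authors' files carry no coordinates. Named genes were, among members with a symbol, the 10 highest at 0h, the 10 with the lowest 22h share, the 5 largest falls and 5 largest rises called at 46h (only 2 named members rose), up to 4 per list by 0h level, and the nearest to the rule's limits (1 of these is not reported here); a gene outside this is named where a short count or a sequence turns on it. The members, the lists and the rule were chosen with earlier results of these data known. Alternatives were a pseudocount of 0.1, other filters and thresholds, median-of-ratios, quantile and TPM scaling, a fit of 22h and 46h alone, eBayes without trend, a replicate block and each library left out. Tables were made with Python 3.11.15 and pandas 2.3.3, figures with matplotlib 3.10.9. The paper's supplementary tables were not used.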

Additional observations from a re-analysis of the deposited data

Results flagged for a closer look

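In all, 195 groups of 4 libraries were screened for a library far from the others of its stage (Dixon's test at 95%). Of these 11 stood out, all in named members, where chance gives about 1 in 20, or 10. Their number is thus near that expected by chance. Groups at 0 in every library, as those of MT3, TSACC and RPL29 at 46h, could not stand out.

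In 22h replicate 1, MT3 had 1.87 FPKM and TSACC 2.62 FPKM while the other 22h libraries were at 0. In 22h replicate 2, TMEM120A with 36.03 FPKM and TOMM20 with 15.05 FPKM lay below the rest. In 22h replicate 4, SLC47A1 with 1.61 FPKM lay above. In 0h replicate 4, COA4 with 484.76 FPKM, CNPY2 with 835.78 FPKM and SPATA24 with 18.45 FPKM lay above the other 0h libraries. At 46h the values concerned were near 0, namely SLC47A1 with 0.1 FPKM and YIF1A with 0.07 FPKM in replicate 3, where the others were at 0, and SPATA24 with 0.25 FPKM in replicate 2.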

How the results depend on the processing

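The number of genes lost by 22h followed the ratio asked for, with 90 at a ratio of at most 0.2 and 276 at 0.33. It was 130 under median-of-ratios scaling (128 of them members), 119 under quantile normalization (all members), and 192 and 108 at 0h limits of 5 and 20 FPKM, and lay between 116 and 194 when 1 library was left out. The members called lower at 46h numbered 106 to 132 under all alternatives and 121 to 132 with 1 library left out. The members called higher numbered 1 without a filter on low values, 1 at an adjusted p under 0.01 and a fold over 2, 5 under median-of-ratios scaling and 8 under quantile normalization, and 1 to 4 with 1 library left out (1 without 22h replicate 4 or 46h replicate 3). The median left at 46h was 3.25% under median-of-ratios scaling and 4.14% under quantile normalization, and 2.26% to 2.66% with 1 library left out. The cause was not tested. The scalings moved the median change of all genes tested from -0.26 to 0.02 (median-of-ratios) and 0.21 (quantile), and the calls over all genes from 692 higher and 2283 lower to 1416 and 1803, and 1971 and 1340.

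Of the alternatives for single named members, 1408 kept the call and the sign, 12 in 6 genes that were not called (MT3, OTX2, STAT4, TOR1A, TSACC and ZMAT2) turned in sign or came to 0 and stayed uncalled, 32 in 7 genes (AGR2, C1orf105, GTSF1, SLC47A1, SPATA24, TAX1BP3 and ZNF566) were no longer called, and 13 in 5 genes (IL6ST, PSMC1, TIMD4, TOR1A and UQCR10) became called. No named member that was called turned in direction. TAX1BP3 was not called in limma without 22h replicate 1 or 3 or 46h replicate 1 or 4 (adjusted p 0.0584 to 0.0688), with no filter on low values (0.0714) or under quantile normalization (-0.69, 0.138). With the replicate number as a block, 129 members were called lower (128 of them the same genes) and 3 higher. Same-numbered libraries correlated between -0.47 and 0.38, so the numbers were not taken to pair the samples. With 4 libraries per stage and no counts, values near 0 FPKM cannot be told from 0.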
